A study of Mus musculus with 6 samples.

Results

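The 39 protein-coding Hox genes of the mouse lie in 4 clusters, and they were selected by symbol from the 21887 protein-coding genes on chromosomes 1 to 19, X and Y. Hoxa on chromosome 6 has 11 of them, Hoxb on chromosome 11 has 10, and Hoxc on chromosome 15 and Hoxd on chromosome 2 have 9 each. A peak belonged to a cluster when its summit lay between the first and last Hox gene or within 100 kb of them. These 4 windows (1.29 Mb) held 42 peaks of the Smc3 het list, which has 47233, and 3 of the Smc3 wt list, which has 14830. Open chromatin was mapped by ATAC-seq, in which a transposase cuts accessible DNA, in marrow cells of mice from which mature lineages had been depleted, which the labels call hematopoietic stem and progenitor cells (HSPC). The genotypes were inv(16);Smc3 D/+ (Smc3 het, 3 libraries) and inv(16);Smc3 +/+ (Smc3 wt, 3 libraries). All 6 libraries thus carried inv(16), the inversion that fuses the core-binding factor gene CBFB to MYH11 in human leukemia, and all came from marrow that was virally transduced and induced with tamoxifen. The labels name neither the Cre driver nor the virus nor how many animals gave a library.

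Hox genes encode homeodomain transcription factors, and the genes of a cluster share 1 direction of transcription, with low paralog numbers at the 3′ end. In blood, genes of the Hoxa and Hoxb clusters are active in stem cells and early progenitors and are silenced as cells mature, with Polycomb proteins acting against them and the MLL (Kmt2a) complex for them. Hoxa9 and its TALE cofactor Meis1 drive many acute myeloid leukemias, whereas leukemias of core-binding factor type usually have low HOXA expression. Cohesin, whose ring subunit Smc3 was the gene altered here, forms loops between sites bound by CTCF, and such sites divide Hox clusters into domains.

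The deposited files hold 1 peak list per genotype, with no values per library. Each group was therefore 1 list, so differences between them could not be set against a spread between libraries and are given without p-values. Genotype, read depth and any other property of a list cannot be told apart. The fold of a peak is the authors' own ratio, summit to background in its list, and the -log10 q is its significance in that list. A whole-number pileup at the summit and the background behind it were recovered from the deposited fold and p-value, for 99.6% of Smc3 het and 99.3% of Smc3 wt peaks. The genome-wide background was 10.6 for Smc3 het, against 8.65 for Smc3 wt, and the part of this difference in what follows was not tested. Intervals on shares are exact (Clopper-Pearson) 95% intervals and cover counting error only. Of 12 HSPC markers, a peak lay within 1 kb of a start site for 9 in Smc3 het (75.0%, 42.8 to 94.5), against 4 in Smc3 wt (33.3%, 9.92 to 65.1), and both intervals include the share of all protein-coding genes with one, 53.8% in Smc3 het and 39.8% in Smc3 wt. Among 4 markers of each other type, the Smc3 het list had such a peak at 0 T cell, 1 B cell (Ebf1), 2 erythroid, 0 neutrophil, and 2 stroma and endothelium markers. The Smc3 wt list had it at 1 neutrophil marker (S100a8) and at 0 of the others, and the part of other cell types in what follows was not tested.

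Selected start sites in the windows are shown by the 250 bases before them, on the strand of transcription, from RefSeq on GRCm38.p6. Other starts under a Smc3 het peak, among them those of the noncoding Hoxb3os (fold 2.58) and Gm38462 (2.41), are not shown. Lnpk and Mtx2 flank the Hoxd cluster and were open in both lists. Hoxd1 and the inner start of Hoxd11 are the only Hox starts in the promoter table whose 300 bases (250 before the start and 50 after) met a peak, in Smc3 het alone. Gm39852 is a long noncoding RNA beside Hoxd whose start carried the most significant peak of the Smc3 het list alone in these windows. Capitals mark the bases that lie under the Smc3 het peak. The regions are chr2:74578949-74579198 (minus strand) for Lnpk, chr2:74825562-74825811 (plus) for Mtx2, chr2:74762730-74762979 (plus) for Hoxd1, chr2:74682073-74682322 (plus) for Hoxd11 and chr2:74606233-74606482 (minus) for Gm39852.
Lnpk: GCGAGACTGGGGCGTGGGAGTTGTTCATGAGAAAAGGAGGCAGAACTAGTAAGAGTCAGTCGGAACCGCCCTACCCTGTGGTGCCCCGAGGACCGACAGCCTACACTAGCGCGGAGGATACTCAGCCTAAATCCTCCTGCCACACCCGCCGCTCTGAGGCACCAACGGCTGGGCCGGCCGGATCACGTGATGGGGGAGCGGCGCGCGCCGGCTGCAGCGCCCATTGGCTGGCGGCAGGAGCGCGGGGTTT
Mtx2: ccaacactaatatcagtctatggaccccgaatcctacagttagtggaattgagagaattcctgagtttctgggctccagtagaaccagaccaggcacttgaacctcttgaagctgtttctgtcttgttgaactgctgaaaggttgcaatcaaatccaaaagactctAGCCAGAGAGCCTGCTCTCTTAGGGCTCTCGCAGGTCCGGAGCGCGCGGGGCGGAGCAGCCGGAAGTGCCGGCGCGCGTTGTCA
Hoxd1: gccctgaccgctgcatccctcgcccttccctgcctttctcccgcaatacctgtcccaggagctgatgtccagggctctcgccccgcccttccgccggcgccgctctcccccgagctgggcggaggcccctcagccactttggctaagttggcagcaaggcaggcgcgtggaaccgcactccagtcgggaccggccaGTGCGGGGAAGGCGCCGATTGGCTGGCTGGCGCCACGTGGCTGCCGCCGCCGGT
Hoxd11: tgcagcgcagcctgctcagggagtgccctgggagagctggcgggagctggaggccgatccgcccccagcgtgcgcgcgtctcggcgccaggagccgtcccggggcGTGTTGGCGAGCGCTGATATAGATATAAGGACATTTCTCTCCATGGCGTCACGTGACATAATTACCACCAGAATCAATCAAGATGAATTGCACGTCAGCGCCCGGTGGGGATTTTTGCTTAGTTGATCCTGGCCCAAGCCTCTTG
Gm39852: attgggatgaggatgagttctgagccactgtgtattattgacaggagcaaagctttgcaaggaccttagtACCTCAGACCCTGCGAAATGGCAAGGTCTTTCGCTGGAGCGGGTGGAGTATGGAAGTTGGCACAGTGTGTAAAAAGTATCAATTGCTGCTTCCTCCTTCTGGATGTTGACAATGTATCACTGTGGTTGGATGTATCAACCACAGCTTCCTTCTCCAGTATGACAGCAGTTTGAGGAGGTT

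The Smc3 het peak covered all 250 bases at Lnpk, 84 at Mtx2, 54 at Hoxd1, 145 at Hoxd11 and 180 at Gm39852. The capitals at Hoxd11 hold the letters ATCAATCA, from 73 to 66 bases before the start, which match TGATTNAT, a site of HOX proteins with TALE cofactors, on the other strand. The capitals at Gm39852 hold the ETS letters GGAAGT (129 to 124 bases before the start) and the RUNX letters TGTGGT on both strands (from 60 and from 43 bases before it). Those at Mtx2 hold GGAAGT from 23 bases before the start, and those at Lnpk hold TGTGGT from 174. Over the 24 promoters of 22 Hox genes in the table, GGAAGT was found on either strand in 2 (8.33%), against 23.8% of all 32817 promoters of the same length. TGTGGT was found in 1 (4.17%), against 16.8% of all. The HOX and TALE letters were found in 2 Hox promoters (8.33%), those of Hoxd11 and Hoxa2, against 3.22%. The GATA letters AGATAA were found in 0 of the Hox promoters, against 11.2%, the AP-1 letters TGANTCA in 1 (4.17%), against 7.81%, and CAGNGGGC, part of the CTCF core, in 2 (8.33%), against 9.06%. These shares rest on few promoters and have no intervals, so a lack or excess at Hox promoters was not tested. The 22 genes are 9 of Hoxa, 3 of Hoxb, 1 of Hoxc and 9 of Hoxd. A match describes the letters and does not show that a protein binds there. The Hox promoters were richer in G and C, with a median of 58.6% against 52.4% over all promoters.

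Nearly all peaks at the Hox clusters were listed in Smc3 het alone. Of the 42 Smc3 het peaks 39 (92.9%, interval 80.5 to 98.5) had no Smc3 wt peak overlapping them by 1 bp or more, against a background of 69.8% over all 47233. In Smc3 wt, 0 of 3 peaks lacked a Smc3 het counterpart, against 2.92% of that list. The windows held 32.6 Smc3 het peaks per Mb, against 17.6 over the genome. They held 2.33 Smc3 wt peaks per Mb, against 5.52 over the genome. Within the clusters themselves, without their flanks, Smc3 het had 28 peaks, against 1 for Smc3 wt. In the full lists the Smc3 het windows thus had more listed sites per length than the genome while the Smc3 wt windows had fewer. The Smc3 wt value rests on 3 peaks. Gene density was not matched, and the windows are rich in genes. They hold the 39 Hox genes in 1.29 Mb, against 21887 protein-coding genes over 2660 Mb. Counted by gene, Smc3 het was below the background too, with a start-site peak at 30.8% of Hox genes, against 53.8% of all. For Smc3 het, 9.52% of the Hox peaks had a -log10 q of 10 to 20, against 16.8% of all. At 20 or more the shares were 2.38% and 19.5%. With the Smc3 het list cut to its 14830 most significant peaks, the windows held 2 of them.

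**Figure D1:**
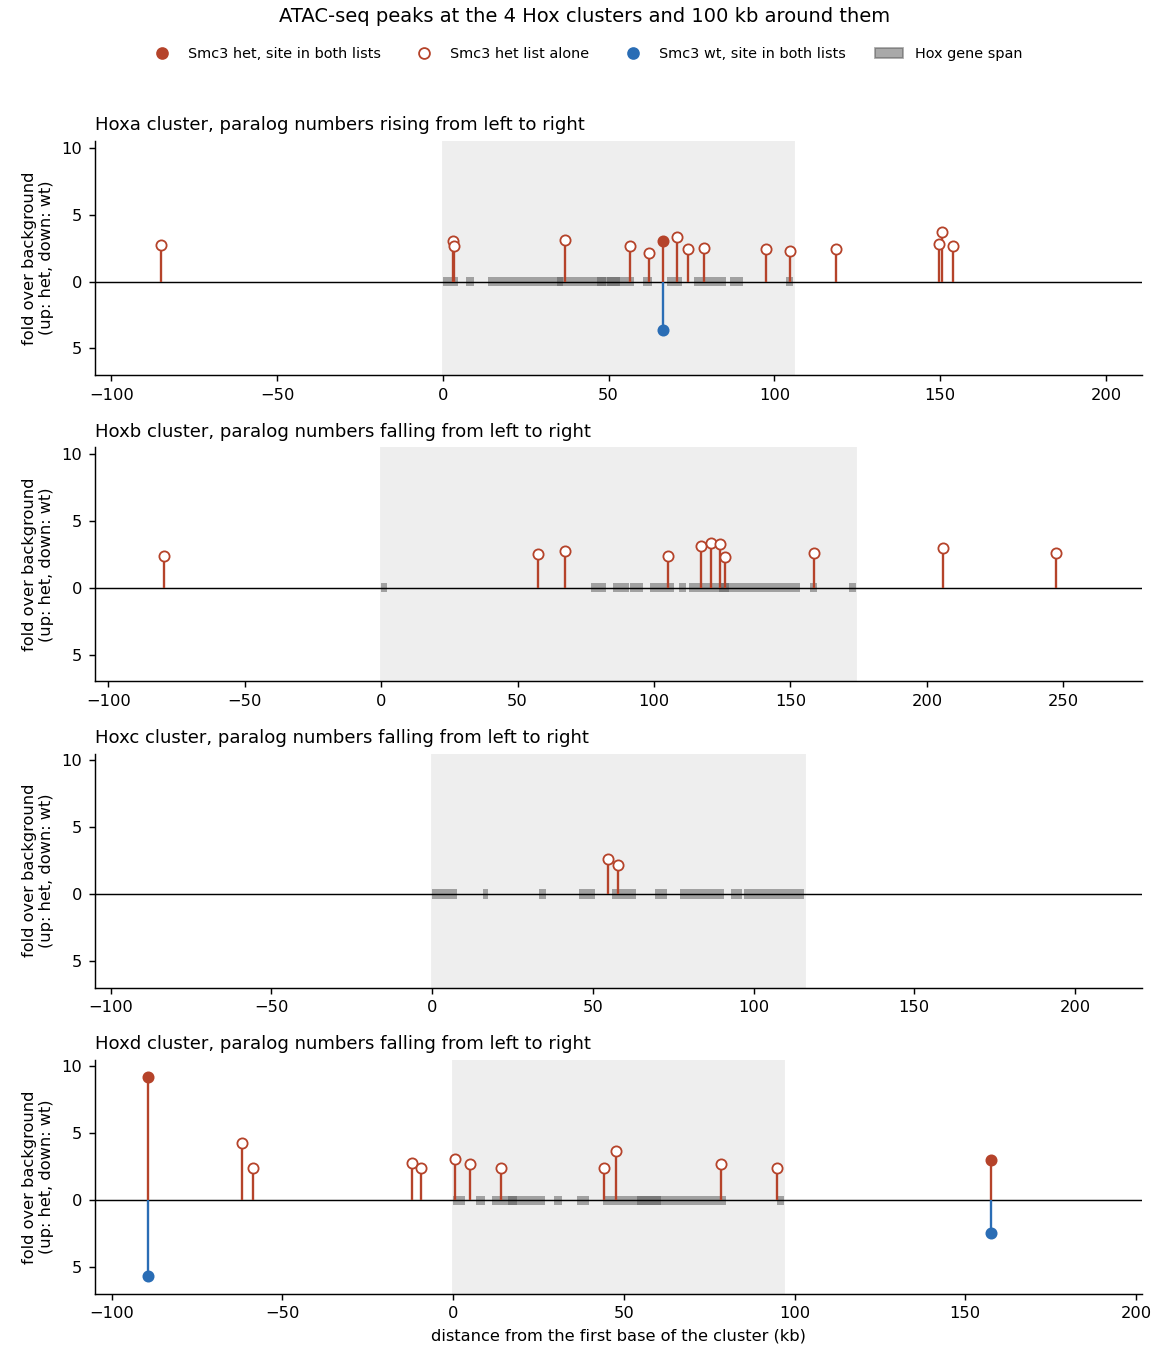
Peaks at the 4 Hox clusters, each panel 1 cluster with 100 kb on each side; x is the distance from the cluster's first base in kb, and the height of a stem is the authors' fold over the background of that list, upward for Smc3 het and downward for Smc3 wt. Filled circles are sites in both lists, open circles sites of the Smc3 het list alone, dark grey bars Hox gene spans and light shading the cluster; 42 stems point up and 3 point down, only 1 of them inside a cluster.

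The Smc3 het peaks at the Hox clusters were mostly weak, and weak peaks were seldom shared anywhere. Their median fold was 2.67 and their median -log10 q 4.07, against 3.01 and 6.70 over the whole Smc3 het list, and 33 of the 42 (78.6%) lay under that list's median significance. The median pileup was 31 at the Hox peaks and 38 over all Smc3 het peaks. Grouped by -log10 q, 13 Hox peaks were under 3 and 15 lay from 3 to 5, and 0 of these 28 had a Smc3 wt counterpart, where 98.6% and 95.9% of all Smc3 het peaks in those ranges had none. From 5 to 10, 7 of 9 Hox peaks had none, against 85.1% of all. From 10 to 20, 4 of 4 had none, against 55.0%, and at 20 or more 0 of 1 had none, against 8.36%. The high share in Smc3 het alone was therefore near the background of the same significance for peaks under 10, and the 4 peaks from 10 to 20 are too few to set apart from theirs.

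**Figure D2:**
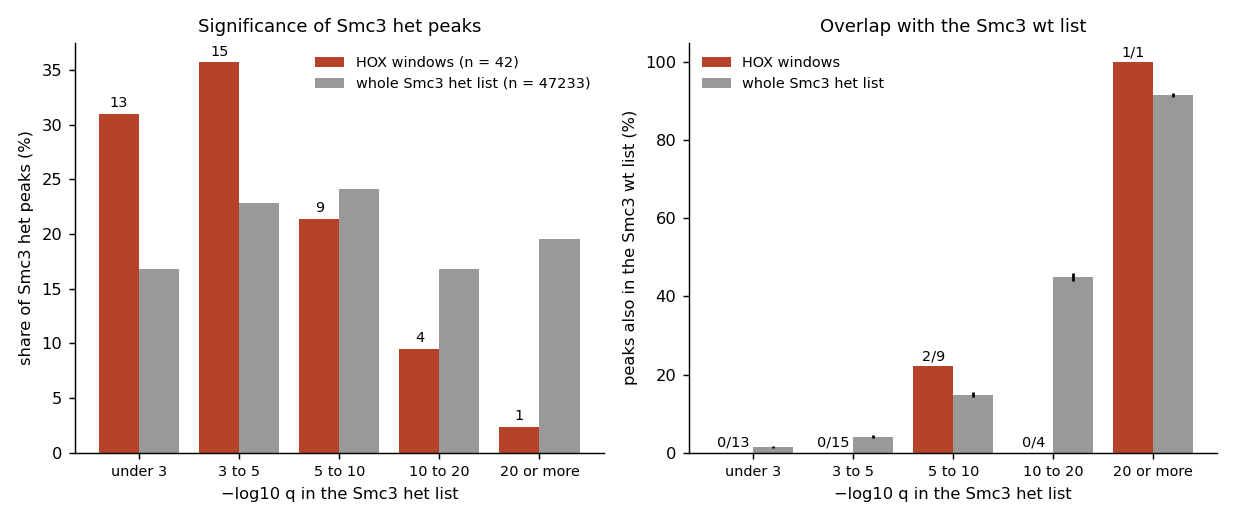
Left, share of Smc3 het peaks (percent) in each range of -log10 q, for the 42 peaks of the HOX windows (red, with counts) and the whole list of 47233 (grey). Right, percent of those peaks that overlap a Smc3 wt peak, with exact 95% intervals on the whole list; 28 of the 42 Hox peaks lie under a -log10 q of 5, where few peaks of the whole list are shared.

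Most of these sites had folds at the low end of the Smc3 wt list. Of the 39 Smc3 het peaks without a counterpart, 14 had a fold below 2.49, the lowest 5% of the Smc3 wt list, and 38 had a fold below its median of 3.83. The median fold of the whole Smc3 het list, 3.01, also lay below 3.83. The same counts over all Smc3 het peaks without a counterpart were not made, so these are not set apart from that list. The folds of the 2 lists are each over their own background and are set side by side only as a guide to what was listed. The 39 pileups were 24 to 49 with a median of 30, while the lowest pileup of any Smc3 wt peak was 21. Of the 42 peaks 13 (31.0%) were narrower than the narrowest Smc3 wt peak, 208 bp, against 25.9% of all Smc3 het peaks. The nearest Smc3 wt peak was 3722 bp away or more for each of the 39, with a median distance of 82972 bp.

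Hoxa had the most peaks, with 16 listed for Smc3 het, against 1 for Smc3 wt, and 11 of the 16 lay within its 106 kb. The Smc3 het folds in its window were 2.12 to 3.67 with a median of 2.67. The single site in both lists lay between Hoxa7 and Hoxa9, genes active in stem cells and leukemia, 3184 bp before the start of Hoxa7. It spanned chr6:52221659-52222004 in Smc3 het, with a fold of 3.06, a -log10 q of 8.77 and a pileup of 48 over a background of 15.0. It spanned chr6:52221493-52221856 in Smc3 wt, with a fold of 3.65, a -log10 q of 9.02 and a pileup of 39 over 9.94. The summit was the same base, 52221757, in both lists, and the intervals shared 198 bp. This was the only peak inside any Hox cluster in Smc3 wt, where it ranked 8013 of 14830 by significance, and in Smc3 het it ranked 19009 of 47233. In human leukemia cells CTCF binds between HOXA7 and HOXA9, and the sequence of the mouse site was not searched here.

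The stretch from Hoxa7 to Hoxa10, 25.2 kb long, held 5 Smc3 het peaks and 1 Smc3 wt peak. Hoxa9, a driver of myeloid leukemia, had a Smc3 het peak inside the gene at chr6:52225751-52226288, 1237 bp past its start, with a pileup of 49, a fold of 3.32 and a -log10 q of 10.23. Hoxa9 had no peak in Smc3 wt, whose nearest summit lay 5613 bp from its start. The Hoxa9 peak had a higher -log10 q in Smc3 het than the site that both lists share, and the other 3 peaks of this stretch had lower ones. Hoxa7 had a Smc3 het peak at chr6:52217577-52217771 with a fold of 2.12, and Hoxa10, whose forced expression blocks myeloid maturation, had one at chr6:52233834-52234469 with 2.51. A further peak, at chr6:52229167-52229340 with a fold of 2.41, lay 741 bp from the microRNA gene Mir196b. The background behind these 5 peaks was 12.2 to 15.0, above the genome-wide 10.6 of Smc3 het, and at the Smc3 wt site it was 9.94 against 8.65. The peak caller raises the background where reads are dense nearby. It was more than 2% over the genome-wide level at 7 of 16 Hoxa, 3 of 11 Hoxb, 0 of 2 Hoxc and 0 of 13 Hoxd peaks of Smc3 het, against 47.0% of all Smc3 het peaks. In Smc3 wt it was so at 1 of 3 peaks in the Hox windows, against 57.7% of that list.

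**Figure D3:**
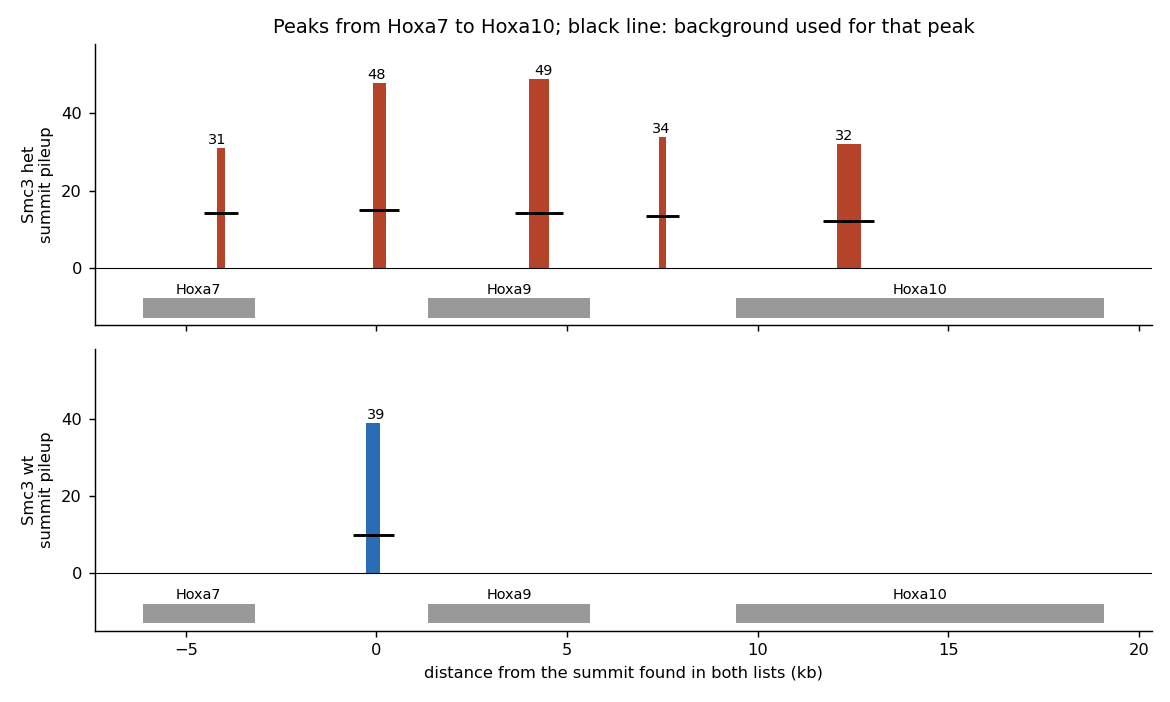
Peaks from Hoxa7 to Hoxa10 in Smc3 het (top) and Smc3 wt (bottom); x is the distance in kb from the summit that both lists share, bars span each peak and rise to its recovered summit pileup (numbers), and black lines mark the background used for that peak. Smc3 het has 5 peaks of 31 to 49, Smc3 wt has 1 of 39.

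Toward the 3′ end of the cluster, Hoxa4 had a Smc3 het peak 394 bp before its start, at chr6:52191915-52192361 with a fold of 3.10, and Hoxa3 one 1270 bp past its start with 2.66. At the 5′ end Hoxa13, a limb and genital gene, had a peak with a fold of 2.32. Hoxa2, Hoxa5, Hoxa6 and Hoxa11 had no peak at their start or with its summit in their span in either list. The strongest Smc3 het peak outside the genes, at chr6:52305937-52306286 with a fold of 3.67 and a -log10 q of 10.46, lay 45 kb beyond Hoxa13, toward Evx1, and had no Smc3 wt counterpart. Evx1 itself, a homeobox gene, had no peak in either list.

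The Hoxb window held 11 Smc3 het and 0 Smc3 wt peaks, with Smc3 het folds of 2.32 to 3.33. Within the span of Hoxb3 lay 4 consecutive peaks, and 2 of these also lay in Hoxb4, whose product expands blood stem cells when overexpressed. The peak nearest the start of Hoxb4 was at chr11:96318554-96318873, 374 bp past it, with a fold of 3.25, a -log10 q of 7.46 and a pileup of 37. The most significant Hoxb peak, at chr11:96314816-96315360 with a fold of 3.33 and a -log10 q of 8.61, had its summit at -3201 bp from that start. A further peak in Hoxb3, at chr11:96311678-96311960, had a fold of 3.11, and the second peak in Hoxb4 had 2.32. Hoxb2 had a peak with a fold of 2.58 over the start of the antisense Hoxb3os, and Hoxb6 one with 2.34. Hoxb1, Hoxb5, Hoxb7, Hoxb8, Hoxb9 and Hoxb13 had none in either list, and the Smc3 wt summit nearest to any of these starts was 118530 bp away. Of the protein-coding genes beside Hoxb, Calcoco2 held 1 Smc3 het peak with a fold of 2.41, and Ttll6 and Skap1 had none in the window.

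The Hoxc window held the fewest at this flank, 2 Smc3 het and 0 Smc3 wt peaks, both at Hoxc9. With flanks of 250 kb it held 17 Smc3 het and 4 Smc3 wt peaks, so its low count belongs to the cluster and the nearest 100 kb. One was at chr15:102975867-102976081, 1073 bp before the start, with a fold of 2.58. The other lay inside the gene at chr15:102978853-102979156 with a fold of 2.15 and a -log10 q of 1.69, the lowest of all 42 peaks. The other 8 Hoxc genes had no peak at the start or in the gene in either list, and the nearest Smc3 wt summit to any Hoxc start was 198920 bp away.

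The Hoxd window held 13 Smc3 het and 2 Smc3 wt peaks, and both Smc3 wt peaks lay at the starts of flanking genes. At Lnpk, which shapes the endoplasmic reticulum, the peak spanned chr2:74578136-74579326 with a fold of 9.21, a -log10 q of 62.94 and a pileup of 106 in Smc3 het, and chr2:74578654-74579255 with a fold of 5.70, 21.57 and 54 in Smc3 wt. At Mtx2, a mitochondrial import gene, it spanned chr2:74825728-74826074 with a fold of 3.01 and a -log10 q of 5.96 in Smc3 het, and chr2:74825776-74826014 with 2.49 and 2.16 in Smc3 wt. Both peaks were wider in Smc3 het, with 1191 bp against 602 bp at Lnpk and 347 bp against 239 bp at Mtx2. Between these 2 flanking genes, all 11 remaining peaks were in Smc3 het alone. The most significant of them, at the start of Gm39852 (chr2:74606193-74606412), had a fold of 4.30, a -log10 q of 14.72 and a pileup of 49.

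Inside the Hoxd cluster, 7 Smc3 het peaks had folds of 2.41 to 3.70 and the Smc3 wt list had 0. Hoxd3 held 3 of them, the strongest at chr2:74715867-74716041 with a fold of 3.70 and a -log10 q of 10.34, next to the start of the antisense Hoxd3os1. The other 2 had folds of 2.41, 293 bp past the start of Hoxd3, and 2.67, near the end of the gene. Hoxd13, which patterns the digits, had a peak 450 bp past its start with a fold of 3.10. The Hoxd1 peak had its summit 13 bp past the start and the Hoxd11 peak 123 bp before the inner start, each with a fold of 2.41 and a pileup of 27. One more peak, with a fold of 2.67, lay 1877 bp before Hoxd12. Evx2, the homeobox gene next to Hoxd13, had 2 peaks in Smc3 het, with folds of 2.75 and 2.41, and 0 in Smc3 wt. Hoxd4, Hoxd8, Hoxd9, Hoxd10 and Hoxd12 had none at the start or in the gene in either list.

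Counted by gene, 12 of the 39 Hox genes (30.8%, 17.0 to 47.6) had a Smc3 het peak within 1 kb of a start site, against 53.8% of all protein-coding genes. In Smc3 wt 0 of 39 had one (upper bound 9.03%), against 39.8% of all. The 12 genes thus had theirs in Smc3 het only, as did 14.1% of all genes, and 0 had theirs in Smc3 wt only, against 0.0959%. Genes with a Smc3 wt peak, 39.8% of all but 0 of the Hox genes, cannot count as Smc3 het only. The 30.8% and the 14.1% therefore have unlike bases. The 39 genes lie in 4 clusters and neighbours are not independent, so the intervals over them may be too narrow. The 12 were Hoxa3, Hoxa4, Hoxa7, Hoxa10, Hoxa13, Hoxb2, Hoxb4, Hoxc9, Hoxd1, Hoxd3, Hoxd11 and Hoxd13. For genes missing from the promoter table either gene end was counted, and at Hoxb2 the peak was at the 3′ end, so that 11 remained when the strand of the cluster was used. By paralog number, 6 of 12 anterior (1 to 4), 1 of 11 central (5 to 8) and 5 of 16 posterior (9 to 13) genes had one. With the strand of the cluster the anterior count was 5. The promoter table covers 8 of the anterior, 5 of the central and 9 of the posterior genes, and a difference between these groups was not tested. A Smc3 het summit lay inside 15 of the 39 Hox genes, against 53.2% of all genes, and a Smc3 wt summit inside 0 of 39, against 29.5%. A longer gene has more room for a summit, and gene length was not matched here or in the counts below that add 5 kb. In all 16 Hox genes had a peak at a start or inside in Smc3 het and 23 had neither, while in Smc3 wt all 39 had neither.

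With 5 kb added on each side of the gene, 23 of 39 Hox genes (59.0%, 42.1 to 74.4) had a Smc3 het summit, against 70.9% of all genes, and 2 (5.13%), Hoxa7 and Hoxa9, had a Smc3 wt summit, against 50.5%. The 2 Hoxa genes share 1 Smc3 wt peak, and neighbouring Hox genes share Smc3 het peaks, so these counts are not independent. The Smc3 het interval includes the share of all genes.

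Genes whose products work with or on the Hox clusters were counted in the same way. Of 37 cofactors and regulators, 34 (91.9%) had a Smc3 het summit within the gene and 5 kb around it, against 70.9% of all genes, and 27 (73.0%) had a Smc3 wt summit, against 50.5%. As over all genes, more of them had one in Smc3 het than in Smc3 wt. By start site, 7 of the 37 had a peak in Smc3 het only, against 14.1% of all genes. With 5 kb added, the share of all genes with a summit in Smc3 het only was not counted. Single genes below with peaks in Smc3 het alone are therefore not set apart from all genes. Meis1, the Hoxa9 cofactor, had 10 peaks in Smc3 het, of which 5 had no counterpart, and 5 in Smc3 wt, with highest folds of 5.59 in Smc3 het and 5.63 in Smc3 wt. Kmt2a, the MLL methyltransferase, had 3 peaks with a highest fold of 5.69 in Smc3 het and 0 in Smc3 wt. Among Polycomb genes, Ezh2 had 3 peaks and a highest fold of 7.44 in Smc3 het, and 2 and 5.39 in Smc3 wt, while Cbx2 and Ezh1 had 2 each in Smc3 het and 0 in Smc3 wt. The caudal-type gene Cdx1 had 1 peak in Smc3 het, with a fold of 2.40, against 0 in Smc3 wt. Cdx2, Cdx4 and Meis2 had 0 in both lists. Each of the 6 cohesin and CTCF genes of the list had a summit in both lists, with 9.62 in Smc3 het and 6.58 in Smc3 wt as the highest fold at Smc3, which does not report how many alleles were intact.

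**Figure D4:**
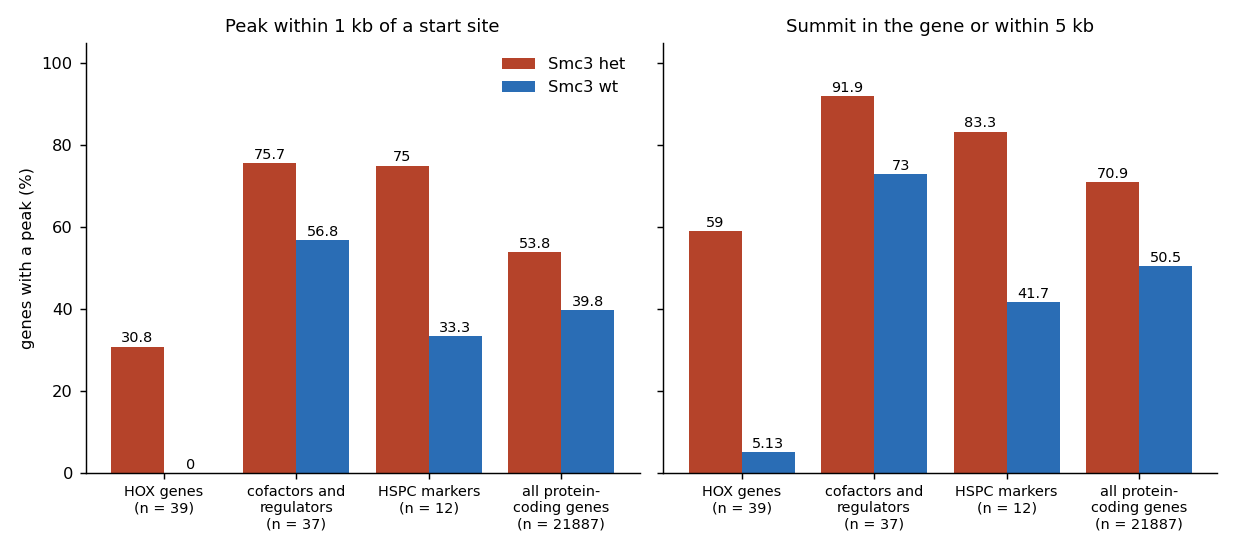
Percent of genes with a peak within 1 kb of a start site (left) and with a summit in the gene or within 5 kb of it (right), in Smc3 het (red) and Smc3 wt (blue), for the 39 Hox genes, 37 cofactors and regulators, 12 HSPC markers and all 21887 protein-coding genes. The Hox bars stand at 30.8% in Smc3 het and 0% in Smc3 wt for start sites, and at 59.0% and 5.13% with 5 kb added.

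When the Smc3 het list was shortened to the 14830 most significant peaks, the length of the Smc3 wt list, the Hox windows held 2 Smc3 het peaks and 3 Smc3 wt peaks. The 2 were those at Lnpk and Gm39852, and 1 of them, at Gm39852, had no counterpart. No peak inside a Hox cluster reached the -log10 q of 11.81 at which that list ended, and the Smc3 wt sites at Hoxa7 and Hoxa9 and at Mtx2 then had no Smc3 het counterpart. Apart from the peak at Gm39852, every Smc3 het peak of the windows without a counterpart lay below that level. The Smc3 wt list was not cut, and its sites at Hoxa7 and Hoxa9 and at Mtx2, with -log10 q of 9.02 and 2.16, also lay below it. The counts of 2 and 3 therefore stand at unlike thresholds. With a -log10 q of at least 5 in both lists, the windows held 14 Smc3 het and 2 Smc3 wt peaks.

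At the edge of the windows, the outermost Smc3 het peak within 100 kb was 89.2 kb before Hoxd, with a fold of 9.21, and the nearest beyond 100 kb was 101 kb before Hoxb, with 2.58. In Smc3 wt the outermost was the same site at Lnpk, with a fold of 5.70, and the nearest beyond was 119 kb before Hoxb, with 7.64.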

How the data were processed

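ATAC-seq peaks from 6 libraries were analysed as 1 list per genotype, in a 10-column layout without a header, tied to genotypes by the peak names. The submitters' processing notes name Bowtie2, MACS2 and mm10. For versions, filters, read shift, extension and pooling, the sources used here state nothing. The authors deposited a position, an integer score, a fold over background (a ratio), a -log10 p-value and a -log10 q-value per peak. The lowest deposited -log10 q was 1.30 (Smc3 het) and 1.33 (Smc3 wt). Depth is unknown, since read counts are not among the values.

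Pileup k and background b were solved from fold = (k + 1)/(b + 1) and the Poisson tail, accepted when the deposited -log10 p was met within 0.01. Overlaps were computed in Python 3.11.15 (numpy 2.4.6, pandas 2.3.3, scipy 1.17.1) and tested on simulated intervals. Gene spans came from RefSeq GRCm38.p6, the assembly of mm10. Start sites came from its promoter table for 22 Hox genes, and either gene end was used for the rest. No genome sequence was used, so motifs were searched in promoters only. Peaks described are, per window, the 3 most significant of each list and of each list alone, and the peaks at Hox genes, except that some results are not reported here. The members and lists were chosen with earlier results of these data known. With 1 list per genotype no test over libraries was made.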

Additional observations from a re-analysis of the deposited data

How the results depend on the processing

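The 39 Smc3 het peaks without a counterpart stayed 39 when 50% of the shorter peak had to overlap, when peaks within 500 bp counted as shared and when the summit had to lie in the other peak. Each of the 39 lay 3722 bp or more from a Smc3 wt peak, so the 500 bp rule could not lower the count. The other 2 rules could only raise it, by at most the 3 shared peaks. With a -log10 q of at least 5 in both lists, 14 Smc3 het peaks were left, 12 of them without a counterpart, and 3 Hox genes had a start-site peak. With a fold of at least 5, the Lnpk site was left as 1 Smc3 het and 1 Smc3 wt peak, with 0 unmatched and 0 Hox genes with a start-site peak. Equal list length cut the Smc3 het list alone. It left 2 Smc3 het peaks, 1 of them unmatched, 2 Smc3 wt peaks lost their counterpart and 0 Hox genes had a start-site peak. Without flanks the Smc3 wt list had 1 peak, and with flanks of 250 kb there were 65 Smc3 het and 11 Smc3 wt peaks, of which Hoxc held 17 and 4, against 2 and 0 at 100 kb, Hoxa 18 and 3, Hoxb 17 and 2, and Hoxd 13 and 2. With 500 bp around a start instead of 1 kb, 7 Hox genes had a Smc3 het peak. The use of the cluster's strand was chosen after seeing the data. Of 84 values per cluster 36 moved by more than 1.5 times, 30 to lower and 6 to higher numbers. The stricter thresholds and the shorter windows leave fewer peaks by construction, and other causes were not tested. No paired analysis was possible because the files hold 1 peak list per genotype and no values per library. For the same reason no library could be left out. Depth is unknown, which limits every statement about a site that 1 list lacks.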

Other observations

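The 6 microRNA genes inside the clusters had their nearest Smc3 het peak at 741 bp (Mir196b), 1280 bp (Mir10a), 2433 bp (Mir196a-2), 3336 bp (Mir196a-1), 10029 bp (Mir10b) and 35754 bp (Mir615), and none was overlapped by a peak. Their nearest Smc3 wt peak lay at 8225 bp for Mir196b and at 99639 bp for Mir10b, and farther for the other 4. Of the 42 Smc3 het peaks 14 touched a noncoding gene, among them Hoxaas3, Hoxb5os, Hoxb3os, Hoxd3os1 and Evx1os. The share of all Smc3 het peaks that do so was not counted.

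Of the 42 Smc3 het peaks 21 had their summit inside a Hox gene, 5 inside a flanking gene and 16 between protein-coding genes. The same split was not counted over the whole Smc3 het list. The peaks were denser within the clusters than beside them, with 5.69 Smc3 het peaks per 100 kb inside and 1.75 per 100 kb in the flanks. The clusters hold the 39 Hox genes in 492 kb, while the flanks hold fewer genes, and gene density was not matched. By cluster the density inside was 10.4 for Hoxa, 7.22 for Hoxd, 4.60 for Hoxb and 1.72 for Hoxc.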
